A study of Drosophila melanogaster with 8 samples.

Results

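Mitochondrial ribosomal proteins are the protein parts of the ribosome inside mitochondria. The genes described here are those whose symbol in the annotation of the arrayed clones begins with mRpL, for the large subunit, or mRpS, for the small subunit. They numbered 48 of 6793 named genes, 29 of the large and 19 of the small subunit, and were read from 108 spots. The Release 6 gene table of the fly lists 73 such symbols, and the other 25 were not analysed here. The rule uses the symbols alone, although it was set with earlier results of these data known. The symbols of all 48 matched Release 6.

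Total RNA of untreated Drosophila melanogaster larvae of the third instar was hybridised to 8 cDNA microarrays, with a pair of differently labelled samples on each. On each array of the Rover group, channel 1 held RNA of Rover larvae and channel 2 held RNA of Rover larvae with the allele DGCalpha1[3], and the arrays of the sitter group paired sitter larvae with DGCalpha1[3] sitter larvae in the same way. There were 4 arrays in each group, and 80 µg of RNA went into every direct labelling. DGCalpha1[3] is a mutant allele of Gycalpha99B, the gene of the alpha subunit of soluble guanylyl cyclase, which makes the second messenger cGMP. Rover and sitter are natural variants of larval foraging behaviour, set by alleles of the gene foraging, which encodes a protein kinase activated by cGMP. The labels do not state how many larvae were pooled, or whether arrays of a group came from separate extracts, so the p-values below measure array-to-array spread only, part or all of which may be technical.

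Each deposited value is a log ratio of the channels of 1 spot, taken here to base 2, which is an assumption. Neither the channel in the numerator nor the dye of each channel is given in the sources used here. A ratio is therefore called positive or negative and gives no direction for the mutant. The deposited ratios were not centred on 0: over all named genes the array medians lay between -0.47 and -0.08, and 64.6% to 79.1% of the genes had a negative ratio. A ratio holds no level of expression, so the larval tissue could not be checked for the presence of its markers, and in whole larvae fewer cells of a type and less RNA per cell cannot be told apart. Replicate 1 of each group came from another print lot than replicates 2 to 4, and was hybridised for 15.75 hours in place of 17.75. The labels spell the lot of replicate 1 a little differently in the groups, and it is taken as 1 lot here. Print lot and hybridisation time cannot be told apart. The Cy5 detector gain was 64 on 5 arrays and 67 or 68 on 3.

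The mitochondrial ribosome translates the few proteins encoded by mitochondrial DNA, which are core subunits of the respiratory chain and of ATP synthase. Its RNAs come from mitochondrial DNA, but its proteins come from nuclear genes, are made in the cytosol and are imported. Many are relatives of bacterial ribosomal proteins and keep the bacterial number, and others carry higher numbers. Mutation of the technical knockout gene, which encodes a small subunit protein, slows larval development and makes adult flies sensitive to mechanical shock.

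As a set the 48 genes lay close to the middle of all named genes. Their median ratio was -0.35 in Rover and -0.22 in sitter, against -0.34 and -0.15 for all named genes. Over both backgrounds 21 of the 48 members were called negative (limma adjusted p under 0.05 over all 19325 features) and 1 positive. That is 43.8% and 2.08%, where 44.9% and 2.36% of all named genes were called. Members therefore passed the test about as often as other genes did. In Rover the calls were 18 negative and 1 positive, with 29 members not passing, where 44.7% of named genes were called negative and 1.72% positive. In sitter 5 were negative, 0 positive and 43 did not pass, against 20.2% and 0.942% of named genes. All 5 of the sitter members were among the 18 of Rover. That is 37.5% negative in Rover and 10.4% in sitter, each a lower share than among all named genes. Leaving out sitter replicate 2 or replicate 3 brought the sitter count to 0. It was 12 in a fit of the 5 arrays with a detector gain of 64, whose sitter arrays were replicates 2 and 3. The shares of all named genes called in these fits are not given here, so the counts were not compared with other genes. The mean of the members was -0.64 to -0.22 on those 5 arrays and -0.15 to -0.10 on the other 3, where the mean of all named genes was -0.53 to -0.35 and -0.24 to -0.12. The part of the detector gain was not tested. The balance of signs rested on the centring. Centring each array on its own median moved all ratios up, by 0.38 in Rover, 0.17 in sitter and 0.28 over both. With it, 8 members were positive and 10 negative in Rover (22.9% and 23% of named genes), 1 and 4 in sitter (2.68% and 9.39%), and 12 and 12 over both (26% and 28.5%).

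The members differed widely among themselves, as the plot of all members by array shows. The mean of the 8 arrays ran from -1.09 for mRpS28 to 0.24 for mRpL37. It was below -0.75 for 9 members, between -0.75 and -0.25 for 14, between -0.25 and 0 for 14 and above 0 for 11. The 9 lowest made up 18.8% of the members, and the same interval held 18.3% of all named genes. The standard deviation between members was 0.46 in Rover and 0.35 in sitter, against 0.47 and 0.36 between all named genes. Ratios were negative on all 8 arrays for 16 members, or 33.3%, as for 31.3% of named genes. No member was positive on all 8 arrays, as 1.32% of named genes were.

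**Figure D1:**
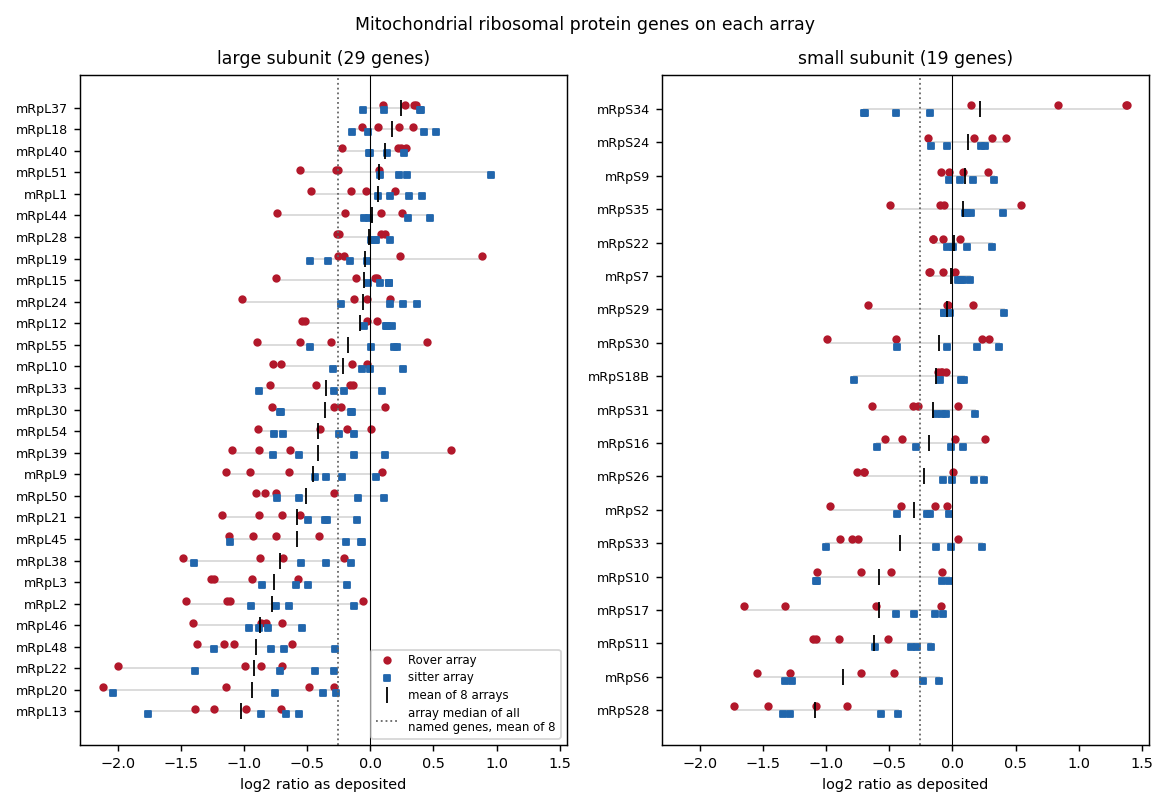
Log2 ratio as deposited (x axis) of each mitochondrial ribosomal protein gene (y axis), with 29 genes of the large subunit on the left and 19 of the small subunit on the right. Red circles are the 4 Rover arrays, blue squares the 4 sitter arrays, black ticks the mean of 8, and the dotted line the mean of the array medians of all named genes. Members range from means near -1 (mRpS28, mRpL13) to means just above 0, and mRpS34 has red and blue points on opposite sides of 0.

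In the large subunit, 15 of 29 genes were called negative over both backgrounds, 1 was positive and 13 did not pass. That is 51.7% negative, against 44.9% of all named genes, and after centring 9 were negative and 6 positive. The lowest was mRpL13, whose bacterial relative is among the first proteins to bind the ribosomal RNA. On Rover 1 to 4 its log2 ratios were -0.71, -1.24, -1.39 and -0.99, and on sitter 1 to 4 they were -0.67, -1.76, -0.86 and -0.56. All 8 were negative and the groups overlapped. The means were -1.08 ± 0.30 (SD, n = 4; adjusted p = 0.00343) in Rover and -0.96 ± 0.54 (SD, n = 4; adjusted p = 0.0181) in sitter. In sitter the mean was -0.70 without sitter replicate 2 and no longer passed (adjusted p = 0.0765), nor did it pass without sitter replicate 3 (adjusted p = 0.0843).

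The genes mRpL46, mRpL48 and mRpL3 were the other members of the large subunit called in each background by itself. mRpL3 is the relative of a bacterial protein that reaches toward the peptidyl transferase centre, where peptide bonds form. Its arrays gave -0.58, -0.94, -1.26 and -1.24 in Rover and -0.59, -0.86, -0.49 and -0.18 in sitter, negative throughout. Its means were -1.002 (adjusted p = 0.0022) and -0.53 (adjusted p = 0.0351). After centring the sitter value of mRpL3 was -0.36 and did not pass (adjusted p = 0.0877). The product of mRpL46 has no bacterial relative. Rover ratios lay from -1.40 to -0.70 and sitter ratios from -0.96 to -0.54, with a mean over both of -0.87 ± 0.10 (SE; adjusted p = 0.000521). For mRpL48 the Rover ratios lay from -1.38 to -0.62 and the sitter ratios from -1.24 to -0.28, with a mean over both of -0.90 (adjusted p = 0.000621). The sitter calls of mRpL46, mRpL48 and mRpL3 were lost without sitter replicate 2 or without sitter replicate 3. That of mRpL3 was also lost without sitter replicate 1. The highest limma adjusted p was 0.0778 for mRpL46, 0.0957 for mRpL48 and 0.16 for mRpL3.

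Other called genes of the large subunit were mRpL22, mRpL2 and mRpL45. mRpL22, related to a bacterial protein that lines the tunnel through which the new chain leaves, had a mean over both of -0.92 (adjusted p = 0.00174), with -2.002 on Rover 3 and -0.28 on sitter 1 as its extremes. mRpL2, a relative of a core protein beside the catalytic centre, had a mean of -0.78 (adjusted p = 0.00274). On Rover 1 and sitter 1, which share print lot and hybridisation time, mRpL2 stood at -0.06 and -0.13, and on the other 6 arrays between -1.46 and -0.65. Its mean on the former arrays was higher than that on the latter by 0.91. The median of this difference was 0.24 over the members and 0.18 over all named genes. mRpL45, which in human mitochondria lies at the tunnel exit and ties the ribosome to the inner membrane, had a mean of -0.58 (adjusted p = 0.00575; -0.30, adjusted p = 0.0602 after centring). mRpL24, related to another bacterial protein near the tunnel exit, was not called (-0.06, adjusted p = 0.751).

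For mRpL20 replicate 1 of each group, with its own print lot and hybridisation time, stood apart. Its ratios were -2.12 on Rover 1 and -2.04 on sitter 1, and the other 3 arrays gave -0.29, -1.14 and -0.48 in Rover and -0.37, -0.76 and -0.27 in sitter. The replicate 1 values were the lowest of the 8. Both arrays of that lot lay below all 6 others for 2 of the 48 members, mRpL37 being the other, and for 146 of 6793 named genes. The part of lot or hybridisation time was not tested. The mean of mRpL20 over both was -0.93 (adjusted p = 0.0106) on 8 arrays and -0.55 (adjusted p = 0.0127) on the 6 arrays of the second lot. In Rover the mean of mRpL20 was -1.01 (adjusted p = 0.0383), but it was -0.64 with replicate 1 left out (adjusted p = 0.159), where it did not pass, nor did it after centring (-0.63, adjusted p = 0.164). The bacterial relative of its product is an early assembly protein of the large subunit.

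Further down the large subunit, mRpL38 (-0.71), mRpL21 (-0.58), mRpL50 (-0.51), mRpL9 (-0.45), mRpL54 (-0.41), mRpL30 (-0.36) and mRpL33 (-0.35) were called negative over both backgrounds. Their adjusted p-values ran from 0.000909 for mRpL21 to 0.0364 for mRpL33. After centring mRpL50, mRpL9, mRpL54, mRpL30 and mRpL33 did not pass, with adjusted p-values from 0.0689 to 0.633. With each array left out in turn the calls of mRpL30 and mRpL33 were lost in 5 of 8 cases each and that of mRpL9 in 3, at adjusted p-values of up to 0.079, 0.0888 and 0.0533. mRpL38 and mRpL21 stayed negative there. Of these genes mRpL38 encodes a protein with a phosphatidylethanolamine-binding-like fold, and mRpL9 the relative of a bacterial protein at the base of a stalk.

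At the other end of the large subunit stood mRpL37, the 1 member called positive over both backgrounds. Its ratios were 0.10, 0.34, 0.36 and 0.27 in Rover and -0.06, 0.11, 0.40 and 0.40 in sitter. All but sitter 1 were positive. The mean over both was 0.24 ± 0.08 (SE; adjusted p = 0.0327), and with single arrays left out it was lost in 6 of 8 cases, at adjusted p-values from 0.0214 to 0.0914. mRpL18, related to a 5S RNA-binding protein of bacteria, had a mean of 0.17 (adjusted p = 0.19). mRpL40 stood at 0.11 (adjusted p = 0.296) and mRpL51 at 0.07 (adjusted p = 0.662). After centring, mRpL37, mRpL18, mRpL40 and mRpL51 were all called positive. The shift by centring means that a ratio near 0 as deposited counts as positive.

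In the small subunit 6 of 19 genes were called negative over both backgrounds and 13 did not pass. That is 31.6%, against 44.9% of all named genes, and after centring 3 were negative and 6 positive. mRpS28, which carries a number above the bacterial ones, was the lowest member of the whole set. Its ratios were -0.83, -1.08, -1.46 and -1.73 in Rover and -0.43, -1.34, -1.29 and -0.56 in sitter. All were negative and the groups overlapped. The means were -1.28 ± 0.40 (SD, n = 4; adjusted p = 0.00233) and -0.91 ± 0.48 (SD, n = 4; adjusted p = 0.0198). Without sitter replicate 2 or sitter replicate 3 the sitter mean of mRpS28 did not pass, the highest adjusted p being 0.097.

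mRpS6, mRpS11, mRpS17, mRpS10 and mRpS2 were the other negative genes of the small subunit, and each carries the number of a bacterial protein. mRpS6 had a mean over both of -0.87 (adjusted p = 0.00312). In sitter it stood at -1.27 and -1.33 on replicates 2 and 3 and at -0.23 and -0.11 on replicates 1 and 4, so that the arrays of the group fell into separate pairs. Replicates 2 and 3 were the sitter arrays scanned at a Cy5 gain of 64. The same pairs stood apart for mRpS10, at -1.08 on both against -0.02 and -0.08, and for mRpS28. All named genes were also more spread on sitter 2 and 3 (SD between genes 0.56 and 0.54) than on sitter 1 and 4 (0.31 and 0.34). How many named genes show these pairs was not counted, and the part of the gain was not tested. The platform protein gene mRpS11 had a mean of -0.62 (adjusted p = 0.000785), mRpS17 of -0.58 (0.0138), mRpS10 of -0.58 (0.0139) and mRpS2 of -0.30 (0.0481), lost in 6 of 8 cases when single arrays were left out. After centring mRpS17, mRpS10 and mRpS2 did not pass, with adjusted p-values of 0.105, 0.0883 and 0.849.

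Several members of the small subunit had means near 0. mRpS7, whose bacterial relative binds the RNA of the subunit head, ranged over the 8 arrays from -0.18 to 0.14, and mRpS22 from -0.15 to 0.31. mRpS9 had a mean of 0.10 (adjusted p = 0.336), mRpS24 of 0.12 (0.309) and mRpS35 of 0.08 (0.582), with single arrays of mRpS35 from -0.50 to 0.55. mRpS29, the relative of the human GTP-binding protein DAP3, had a mean of -0.04 (0.786), with arrays from -0.67 to 0.41. None of these passed as deposited, and after centring mRpS7, mRpS22, mRpS9, mRpS24 and mRpS35 were called positive.

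The large subunit had lower ratios than the small subunit on every array. The mean of the 29 genes minus the mean of the 19 was -0.23, -0.21, -0.09 and -0.08 on Rover 1 to 4 and -0.03, -0.15, -0.06 and -0.06 on sitter 1 to 4. The average was -0.15 ± 0.08 (SD, n = 4) on Rover arrays and -0.07 ± 0.05 (SD, n = 4) on sitter arrays. These values are small beside the spread between members within a subunit, which was 0.42 for the large and 0.50 for the small subunit in Rover. mRpS34 added to the Rover value: without it the difference averaged -0.08 ± 0.07 in Rover and -0.09 ± 0.03 in sitter (SD, n = 4 each), and on Rover 4 it was 0.0022. In the mitochondrial ribosome of mammals the protein named S30 lies in the large subunit. With mRpS30 counted there the mean over 8 arrays was -0.10, against -0.11 by symbol. Centring does not alter a difference within an array.

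**Figure D2:**
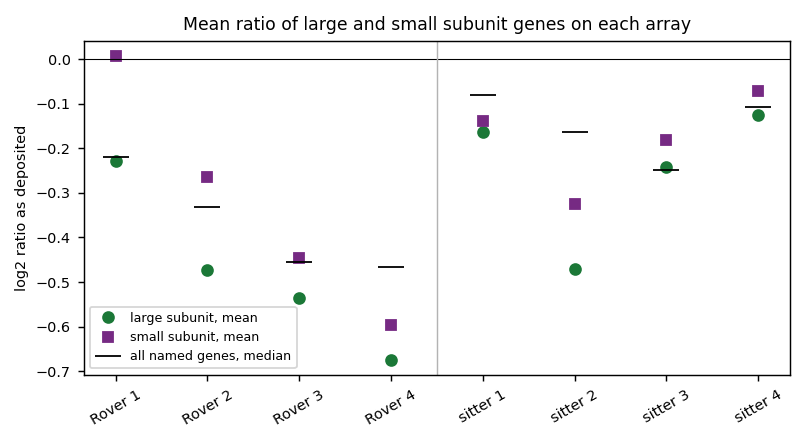
Mean log2 ratio as deposited (y axis) of the large subunit genes (green circles) and small subunit genes (purple squares) on each of the 8 arrays (x axis), with the median of all named genes as a black bar. The green circle lies below the purple square on each array, by 0.03 on sitter 1 and by 0.23 on Rover 1. Both tend to be lower on arrays with a lower median of all named genes, though not in the same order throughout.

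The members can also be split by whether their number is that of a bacterial protein. Over both backgrounds the 26 members with a bacterial number (up to 36 in the large and up to 21 in the small subunit) had a median of -0.33, and the 22 with a higher number had -0.17. In the large subunit the medians were -0.35 for 17 genes and -0.41 for 12, and in the small subunit -0.30 for 9 genes and -0.07 for 10. Of the 10 genes of the small subunit with a higher number 1 was called negative, mRpS28. Of the 9 with a bacterial number 5 were, against 44.9% of all named genes. The split is by number alone, which need not match descent. After centring the negative calls were 1 and 2 and the positive calls 4 and 2. The order of these medians differed between the subunits.

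Rover and sitter ratios of the members ran together, with 1 gene far off the line in the plot of both means. Across the 48 genes Pearson's r between the background means was 0.70 and Spearman's rho 0.77, and without mRpS34 r was 0.84. Over all named genes r was 0.74. The genes are not independent replicates, and the arrays share clones, print lots and dyes. The mean of the members relative to the median of all named genes was -0.05 ± 0.11 (SD, n = 4) on Rover arrays and -0.07 ± 0.13 (SD, n = 4) on sitter arrays. They differed by 0.02, less than either spread.

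**Figure D3:**
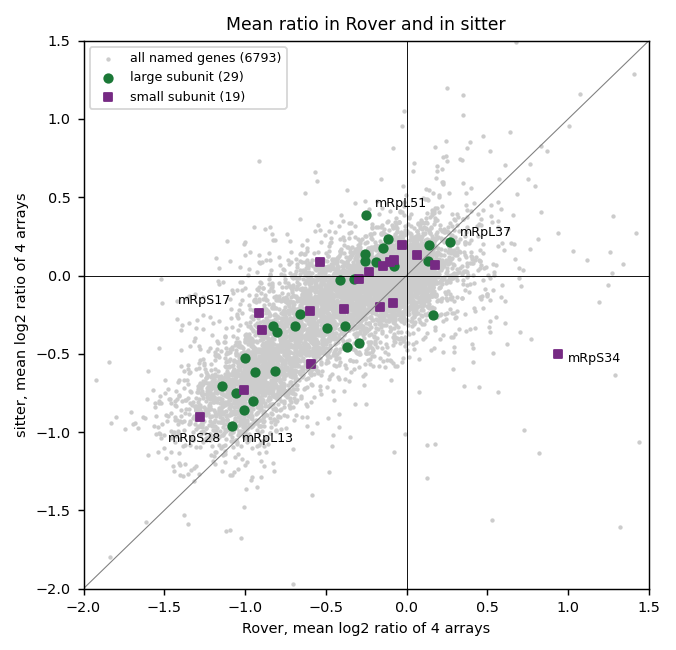
Mean log2 ratio of 4 Rover arrays (x axis) against that of 4 sitter arrays (y axis) for all 6793 named genes (grey), the large subunit (green circles) and the small subunit (purple squares); the diagonal marks equal ratios, and some grey points lie outside the axes. Members lie within the grey cloud and run along it, except mRpS34 at 0.94 and -0.50.

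No member was called in the difference between backgrounds. limma called 0 of 48, with 5 at an unadjusted p under 0.05, which is 10.4% of the members against 11.4% of all named genes. Of all named genes 0.0589% were called. After centring 0 members were called too, where 0.0883% of named genes were, with 2 at an unadjusted p under 0.05, where 9.47% of named genes were under it. The median difference, Rover minus sitter, was -0.24 for the members and -0.17 for all named genes, and 39 of the 48 were negative. After centring the median of the members was -0.03 and 26 were negative, so most of the shift toward negative differences was common to all genes of an array.

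mRpS34, a mitochondria-specific protein of the small subunit, differed most. Its ratios were 1.38, 1.38, 0.15 and 0.84 on Rover 1 to 4 and -0.69, -0.18, -0.70 and -0.45 on sitter 1 to 4. Every Rover array was positive, every sitter array was negative, and the groups did not overlap. The Rover mean was 0.94 ± 0.58 (SD, n = 4; adjusted p = 0.00573) and the sitter mean -0.50 ± 0.25 (SD, n = 4; adjusted p = 0.0989). Their difference of 1.44 had a 95% interval of 0.80 to 2.08 and an adjusted p of 0.198. It was the highest difference of the members and the 12th highest of the 6793 named genes. Positive ratios on all Rover arrays with negative ratios on all sitter arrays were found for 0.574% of named genes, and Rover arrays wholly above sitter arrays for 1.58% (7.39% relative to the array medians). After centring the difference was 1.64 (adjusted p = 0.074). Over the other alternatives it ran from 1.23 to 1.70, with adjusted p-values from 0.0809 to 0.699. Both spots of mRpS34 were alike, with a mean SD within an array of 0.04. In the Release 6 gene table mRpS34 overlaps the gene Golgin104 by start and end positions. A double-stranded cDNA spot cannot tell RNA of overlapping genes apart where the clone holds the shared sequence. Whether this clone does was not checked.

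Other members without overlap between the groups lay lower in Rover. The ratios of mRpL51 were -0.27, -0.25, 0.07 and -0.56 in Rover and 0.96, 0.08, 0.23 and 0.29 in sitter. Rover 3 and sitter 2 nearly touched. The difference was -0.64 (95% interval -1.15 to -0.13; adjusted p = 0.455), and -0.45 without sitter replicate 1. mRpL21 stood between -1.18 and -0.56 in Rover and between -0.50 and -0.10 in sitter, with a difference of -0.50 (-0.90 to -0.11; adjusted p = 0.453). mRpS7 had the smallest difference of this kind, -0.19 (adjusted p = 0.65). In all, 3 members lay wholly lower in Rover, or 6.25%, as did 6.23% of named genes. Relative to the median of all named genes on each array, mRpL21 was the only one of the 3 without overlap, a pattern of 1.78% of named genes.

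**Figure D4:**
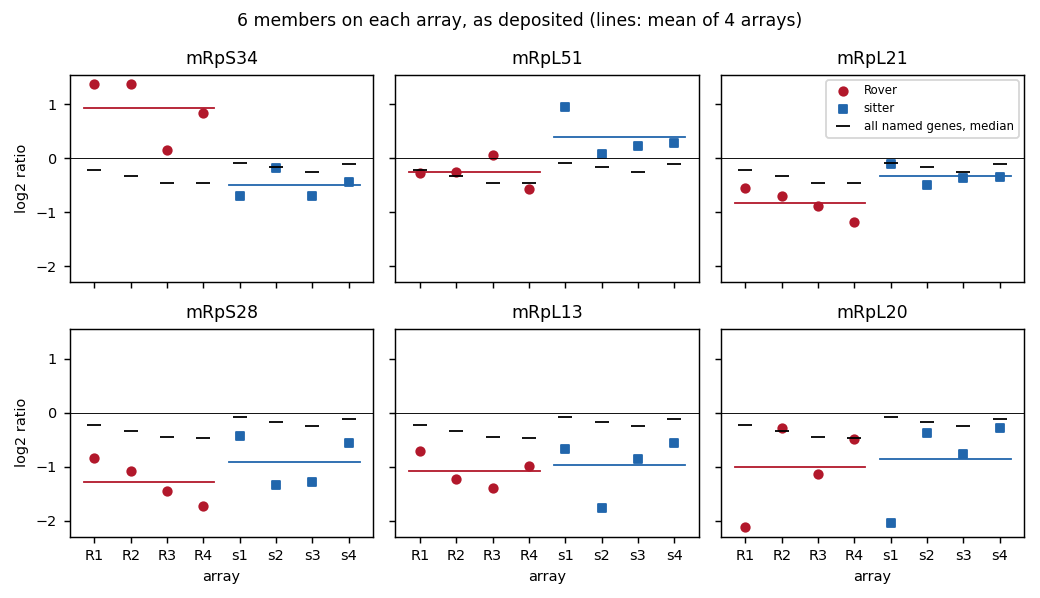
Log2 ratio as deposited (y axis) on each array (x axis; R1 to R4 Rover, s1 to s4 sitter) for 6 members; coloured lines are the means of 4 arrays and black bars the median of all named genes on that array. mRpS34 lies above 0 in Rover and below 0 in sitter, mRpL51 and mRpL21 are lower in Rover, mRpS28 and mRpL13 are negative on all arrays, and mRpL20 is near -2 on R1 and s1.

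Among the members named for their difference, mRpS17 (-0.68, adjusted p = 0.55), mRpS26 (-0.62, 0.419) and mRpS11 (-0.55, 0.426) were negative, and mRpL19 (0.42, 0.625), mRpL30 (0.13, 0.86) and mRpS24 (0.11, 0.853) positive. mRpS26 was at -0.76, -0.70 and -0.70 on Rover 2 to 4 and at 0.01 on Rover 1, with sitter arrays between -0.08 and 0.25. Its Rover mean of -0.54 was called (adjusted p = 0.0134) as deposited, but was -0.16 after centring (adjusted p = 0.321). mRpL19 stood at 0.89 on Rover 4, and its difference was 0.17 with that array left out. None of these 6 passed the test of the difference.

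**Figure D5:**
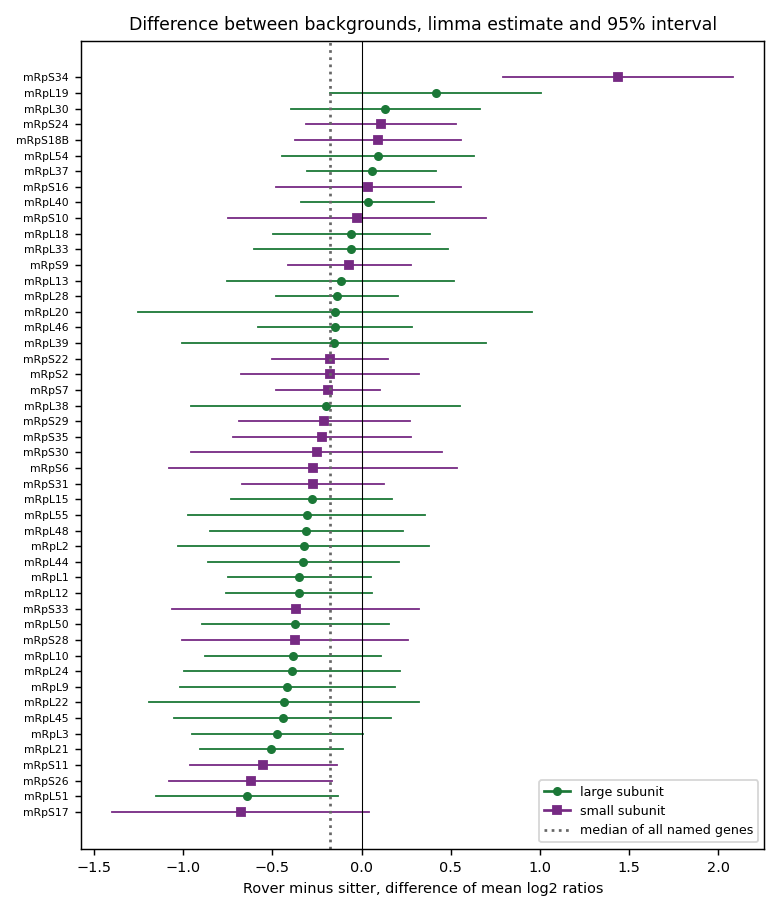
Difference of the mean log2 ratios, Rover minus sitter (x axis), for each of the 48 members (y axis), with the limma estimate and its unadjusted 95% interval; green circles are large and purple squares small subunit genes, and the dotted line is the median of all named genes. mRpS34 at 1.44 is the only member whose interval lies wholly above 0, and the intervals of 4 members lie wholly below it.

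The spots of a gene give a check within an array. Duplicate neighbouring spots of the members, 54 pairs, correlated at 0.53 to 0.87 per array. The mean SD between the spots of a member was 0.29 (median) for the 21 genes called negative over both backgrounds and 0.12 for the 26 not called, against 0.18 for all named genes. The largest were those of mRpL22 (0.50), mRpL13 (0.43) and mRpL10 (0.43). Spot spread and mean ratio thus moved together among the members, with a Spearman rho of -0.72 across 48 genes and -0.62 across all named genes. These genes share arrays and print lots, and the part of spot spread in the ratios was not tested.

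Of the members, 6 were spotted at a pair of separate places, which may hold different clones. For mRpL10, which anchors the stalk that recruits translation factors, the mean over both backgrounds was 0.11 at one place and -0.55 at the other. Its average of -0.22 (adjusted p = 0.13) therefore describes neither. For mRpL12, the stalk protein itself, the places gave -0.16 and -0.0048. The places of mRpL50 gave -0.75 and -0.26, those of mRpL9 -0.52 and -0.38, those of mRpS11 -0.53 and -0.71, and those of mRpS31 -0.19 and -0.13. The sign was the same at both places for all but mRpL10. Among the genes of Release 6, 25 of the 48 members overlap at least 1 other gene, among the named ones mRpL13, mRpL2, mRpL48, mRpS28 and mRpS34.

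Genes that work with the mitochondrial ribosome were described in the same way, with lists chosen by name. Their counts are to be read against the shares of all named genes, which over both backgrounds were 44.9% negative and 2.36% positive as deposited and 28.5% and 26% after centring. Of 15 measured translation factors and aminoacyl-tRNA synthetases of mitochondria, of 29 listed, 9 were called negative over both backgrounds, 0 positive and 6 did not pass. That is 60% negative, with a median of -0.37, and after centring 7 were negative and 0 positive. The synthetase genes ValRS-m (-1.01) and ArgRS-m (-0.98) and the elongation factor gene mEFG1 (-0.86) were the lowest called. In Rover 11 of the 15 were called negative (44.7% of all named genes), and in sitter 4 (20.2%). After centring these counts were 6 and 3, where 23% and 9.39% of named genes were negative. mRpS9 overlaps ArgRS-m in the gene table, and stood near 0 where ArgRS-m did not.

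Of 10 measured genes of mitochondrial DNA expression, 4 were called negative over both backgrounds and 1 positive (2 and 4 after centring), with a median of -0.18. The negative ones included mTerf3 (-0.75), a regulator of mitochondrial transcription and ribosome assembly, and mtTFB2 (-0.68), a transcription factor of mitochondria, and the positive one was the protease gene Lon at 0.31 (adjusted p = 0.0137). Of 8 measured genes of protein import 3 were negative and 0 positive (3 and 2 after centring), with a median of -0.19 and Tim17a1 at -1.03, Tim9a at -0.58 and Roe1 at -0.58. Of 37 subunits of oxidative phosphorylation, 8 were negative and 1 positive, with a median of -0.05. After centring the balance turned, with 4 negative and 17 positive. ND-75 of complex I was at -1.04 and ATPsynD of ATP synthase, the positive one, at 0.22. Of 23 genes named for the cytosolic ribosome 4 were negative and 1 positive, with a median of -0.03. Here too it turned after centring, to 3 negative and 13 positive. The lowest called were RpLP1 (-0.79), RpL32 (-0.73) and RpS20 (-0.62), and the positive one was RpL27 (0.27). The members' median over both backgrounds was -0.22, below those of the last 2 lists, and the median of all named genes was -0.23. The difference between backgrounds was called for 0 genes of these lists.

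Markers of larval tissues are given beside the difference of mRpS34. The 5 measured fat body genes of 8 listed had a mean ratio of -0.28, -0.10, 1.24 and 0.71 on Rover 1 to 4 and of -0.25 to -1.97 on the sitter arrays. The Rover arrays with the lowest fat body values, 1 and 2, were those where mRpS34 was highest. On the sitter arrays the fat body mean and mRpS34 were both negative throughout. There the fat body mean was highest on sitter 1 and lowest on sitter 4. mRpS34 was highest on sitter 2 and lowest, at nearly the same value, on sitter 1 and 3. The 4 midgut genes of 8 had means from -0.15 to 0.05 and the 3 muscle genes of 8 from -0.33 to 0.14. The 1 measured salivary gland gene, Sgs4, was at -3.15, -3.71, -0.83 and -0.56 on Rover 1 to 4. On sitter arrays it lay between -0.59 and 0.22. The 1 cuticle gene, Ccp84Ab, ran from -1.79 to -0.35 over all arrays. The part of tissue makeup in the members' values was not tested.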

How the data were processed

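The authors' labels describe scanning on a ScanArray instrument and quantification with QuantArray version 3, adaptive, with no background subtraction. The deposited values, 1 log2 ratio per spot and array, were made by the authors from normalised intensities; the method, numerator channel, dyes and log base are not given in the sources used here, and base 2 is assumed. No array's sign was turned. The table held 27648 spots on 8 arrays with 0 missing values. Of 15218 annotated spots 15116 had 1 gene symbol, 102 had several (0 of them members) and were not named, and the rest are unnamed here. Spots of a gene were averaged per array, and all other spots kept singly, for 19325 features.

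limma 3.58.1 (R 4.3.3) was used to fit a mean per background over all 8 arrays, with empirical Bayes moderation. Calls were made at a Benjamini-Hochberg adjusted p under 0.05, the adjustment covering all features. The fit was tested on simulated data. Lists are described by counts and medians without a test. Same-numbered arrays deviated together at 0.31, 0.123, 0.0621 and 0.0568 for replicates 1 to 4, so the numbers were not taken as pairs. The members and lists were chosen with earlier results of these data known. Named were the members called in any comparison, the 4 highest and 4 lowest means of each subunit, the 4 highest and 4 lowest differences and the 3 of largest spot spread; other members, and Lon, ATPsynD and RpL27, were named after their values were seen. The promoters and related proteins of the members were not analysed here. Alternatives were centring, scaling, print lot, Cy5 gain, median of spots, robust moderation, array weights, the replicate block and leaving out each array. The number of arrays limits the precision.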

Additional observations from a re-analysis of the deposited data

Results flagged for a closer look

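The ratio of mRpS34 was positive on all 4 Rover arrays and negative on all 4 sitter arrays, a difference of 1.44 that did not pass limma's test (adjusted p = 0.198). In 5 of the 70 groups of 4 arrays checked, 1 array stood far from the other 3; chance marks about 1 group in 20. These were mRpL40 on Rover 3 at -0.22, mRpL45 on sitter 2 at -1.11, mRpS26 on Rover 1 at 0.0086, mRpS33 on Rover 2 at 0.0462 and mRpS35 on sitter 3 at 0.40.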

How the results depend on the processing

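Members called in sitter were 5 as deposited, 12 after centring and scaling (6 of each sign), 11 with print lot as a block, 12 at a Cy5 gain of 64, 9 with array weights, and 0 to 7 with single arrays left out, 0 without sitter replicate 2 or 3; the cause was not tested. Leaving out arrays gave 13 to 22 called members in Rover and 17 to 23 over both. The shares of all named genes called under these settings are not given here. Whether the counts moved more than those of other genes is therefore not shown. The difference between backgrounds called 0 members under each alternative run, with the replicate block also 0. Signs turned for means near 0: over both backgrounds mRpL10 went from -0.22 to 0.0576 centred and 0.075 also scaled, mRpS26 from -0.23 to 0.0505 and 0.11, and mRpL51 from 0.07 to -0.0477 at a Cy5 gain of 64 and -0.025 on print lot B alone. With single arrays left out mRpL51 ran from -0.0276 to 0.12, mRpS35 from -0.0141 to 0.16 and the difference of mRpL30 from -0.0028 to 0.29. Centring ended 18 of the calls of named members and made 7 new ones, out of 64 values. The alternatives on print lot B alone, without mRpS34 and with mRpS30 moved were chosen after seeing the data. The median of spots differs from their mean only for the 6 members with 4 spots. Background correction and a filter on dim spots were not run, as no intensities were used here.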
